A study of Mus musculus with 18 samples.

Results

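Medullary thymic epithelial cells with high surface MHC class II (mTEChi) were compared between mice labelled as Kat7 knockout (KO) and wildtype (WT) mice, gene by gene across the transcriptome. The comparison used 6 of the 18 RNA-seq libraries of the series. They were 3 KO libraries from mouse pools 4, 5 and 6 and 3 WT libraries from mouse pools 1, 2 and 3. The other libraries were made from mTEC with low MHC class II (mTEClo) and from cortical thymic epithelial cells (cTEC) of the same pools. Both genotypes were on the C57BL/6 background, and every library came from a pool of mice, so the spread between libraries is a spread between pools. Nothing in the sources used here gave the allele, the deleted part of Kat7, a Cre driver, or the age and sex of the mice. Of 27179 genes in the deposited count table, 19364 had enough reads to be tested.

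KAT7 (also known as HBO1) is a histone lysine acetyltransferase. It works in complexes whose scaffold is either a BRPF protein, with which it acetylates histone H3, or a JADE protein, with which it acetylates histone H4, and these complexes also hold an ING protein and MEAF6. Mature mTEC carry the autoimmune regulator AIRE, which lets them transcribe genes of many other organs so that developing T cells that recognise the products can be deleted or diverted. The same fraction presents these products on abundant MHC class II and secretes chemokines that attract thymocytes and dendritic cells, and the medulla also holds rare epithelial cells that resemble cells of other organs, such as tuft, muscle, ciliated and microfold cells.

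Levels are given as CPM, read counts scaled to the effective size of each library, and were fitted with edgeR's quasi-likelihood test. Every adjusted p below is from that test with Benjamini-Hochberg adjustment over the 19364 genes, and a gene was called at an adjusted p under 0.05. Each log2 fold change is KO over WT with its standard error. CPM is not scaled for transcript length, so the CPM of different genes are not levels to be compared, and a sum over genes weighs long and abundant transcripts most. Totals were 8404672, 13373646 and 6802970 counts in the KO libraries and 3554089, 8445355 and 7242386 in the WT libraries. The labelled cell type was visible in its markers: Aire averaged 676 ± 38 CPM in KO and 1184 ± 75.7 CPM in WT mTEChi, against 37.6 CPM in WT mTEClo and 49.8 CPM in WT cTEC, and the cortical protease Prss16 averaged 177 ± 24.9 CPM in KO and 48.8 ± 5.82 CPM in WT mTEChi, against 813 CPM in WT cTEC. The first principal component held 72.7% of the variance and separated KO (61.1 to 75.8) from WT (-74.8 to -65.1). The second held 9.19% and spread the KO libraries, with KO 4 at 47.8 and KO 5 and KO 6 at -13.8 and -34.3. A sorting or sequencing day was not given, so a batch that separated the WT pools from the KO pools cannot be told apart from the genotype.

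Kat7 itself (chromosome 11, 95271853 to 95310246, GRCm38.p6) fell to a few CPM. It had 2.63, 2.88 and 1.47 CPM in KO 4, KO 5 and KO 6, against 59.0, 55.7 and 47.9 CPM in WT 1, WT 2 and WT 3. The means were 2.33 ± 0.753 CPM in KO and 54.2 ± 5.71 CPM in WT (SD, n = 3 each), a log2 fold change of -4.47 ± 0.29 (SE) with adjusted p = 7.52e-09. Of the 9 other members of its complexes, all tested, only Ing4 was called. Ing4, a reader of trimethylated lysine 4 of histone H3, had 126, 137 and 145 CPM in KO and 94.4, 106 and 110 CPM in WT, with a log2 fold change of 0.39 ± 0.10 and adjusted p = 0.00379. The scaffold Jade3 had a log2 fold change of 0.60 ± 0.23 and missed the threshold at adjusted p = 0.0505 (0.0131 to 0.130 over the alternatives). The scaffolds Brpf1, Brd1, Brpf3, Jade1 and Jade2, and Ing5 and Meaf6, had log2 fold changes between -0.18 and 0.09 and none passed the test.

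Among all genes tested, 3305 were higher in KO mTEChi (17.1%) and 3741 were lower (19.3%), so the counts were near each other, but the sizes of the changes were not. Of the lower genes 69.8% fell at least 2-fold, against 19.8% of the higher genes. At least 2-fold there were 654 higher genes (3.38%) and 2612 lower genes (13.5%), and at least 8-fold there were 10 higher and 437 lower. The median log2 fold change was 0.67 among the higher genes, -1.62 among the lower genes and -0.11 over all genes tested. Without KO 4, the library at the end of the second component, 2697 genes were higher and 2619 lower, and without WT 3 the counts were 2394 and 2436. More genes were higher than lower when any library but WT 3 was left out. Of the 19364 genes tested, the libraries of the genotypes did not overlap for 4744 that were higher and 6078 that were lower in KO. With 3 libraries a side some genes separate fully by chance, so these are not counts of changed genes.

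**Figure D1:**
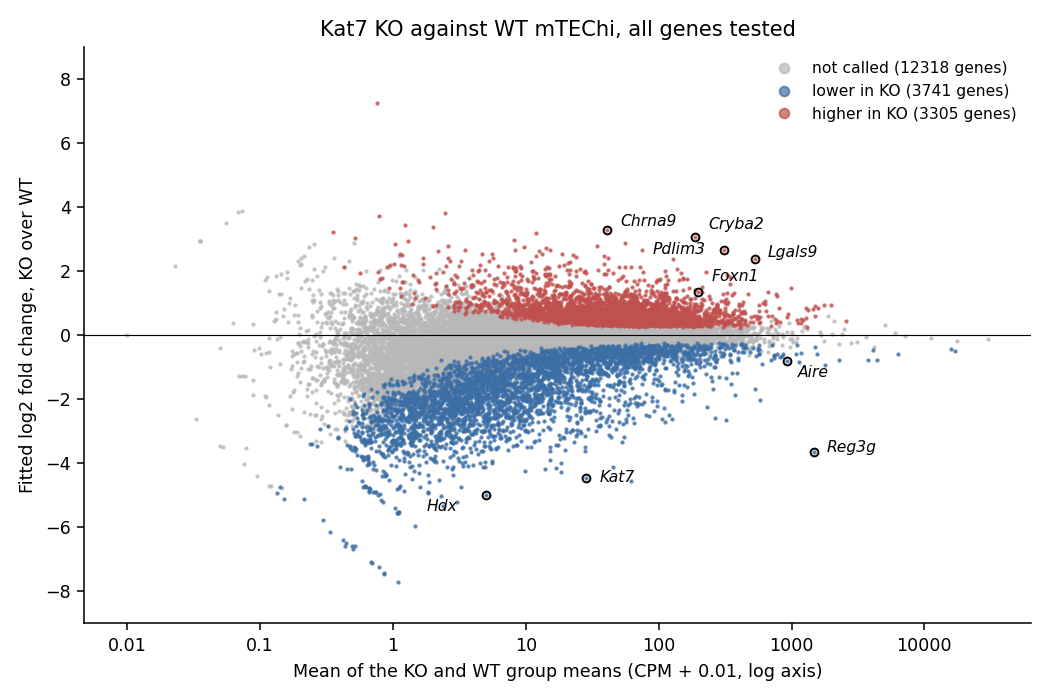
Fitted log2 fold change of KO over WT mTEChi (vertical axis) against the mean of both group means in CPM (horizontal log axis), with 1 point per gene tested, red for the 3305 genes called higher and blue for the 3741 called lower. The lower genes reach far larger changes than the higher ones, most of all at low levels, where fitted values of genes with few or no reads in a group depend on the model's prior count.

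Among tested genes, the shares called in each direction differed by the level of a gene in the other WT subsets. Genes were placed in classes by their mean level in WT cTEC and WT mTEClo, subsets outside the contrast of genotypes in mTEChi but from the same WT pools. Of 2260 tested genes under 0.5 CPM there, 0.796% were higher and 36.4% lower in KO mTEChi, with a median log2 fold change of -1.62. Of 4817 genes at 50 CPM or more, 35% were higher and 11.7% lower, with a median of 0.16. The classes between lay in order, with medians of -0.76 at 0.5 to 2 CPM, -0.35 at 2 to 10 CPM and 0.07 at 10 to 50 CPM. Genes of the lowest class could pass the filter on low counts mainly through mTEChi itself, by way of the genotype with more reads. The filter thus favours genes that differ, and the shares and median describe tested genes, not every gene that is silent elsewhere. How much of the order of the classes comes from the filter was not tested.

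Taken over all 9424 genes with under 0.5 CPM in both of those WT subsets, tested or not, the summed level was 2838, 2801 and 2537 CPM in KO and 7131, 6994 and 7784 CPM in WT. KO averaged 2725 ± 164 CPM and WT 7303 ± 422 CPM (SD, n = 3 each), a ratio of 0.373, and the libraries did not overlap. Of these genes, 688, 673 and 680 reached 1 CPM in the KO libraries and 1738, 1644 and 1797 in the WT libraries. The two-sided exact permutation test gave p = 0.1, the smallest that 3 against 3 libraries allow.

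Fewer genes were detected in KO at the same depth. Every library was thinned to the smallest total, that of WT 1, and genes with 5 or more reads were counted as the mean of 10 draws. KO libraries held 15882, 15955 and 15851 such genes and WT libraries 17651, 17606 and 17864, a difference of -1811 with no overlap (exact permutation p = 0.1, the smallest possible). The summed level of the 2612 genes called at least 2-fold lower was 15448 to 16539 CPM in KO and 52400 to 55465 CPM in WT. Those genes were chosen by their fall in the same libraries, so a lower KO sum was fixed by the choice and only its size is described. These are bulk libraries, so fewer cells that express a gene and less of its RNA per cell cannot be told apart in any result here.

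**Figure D2:**
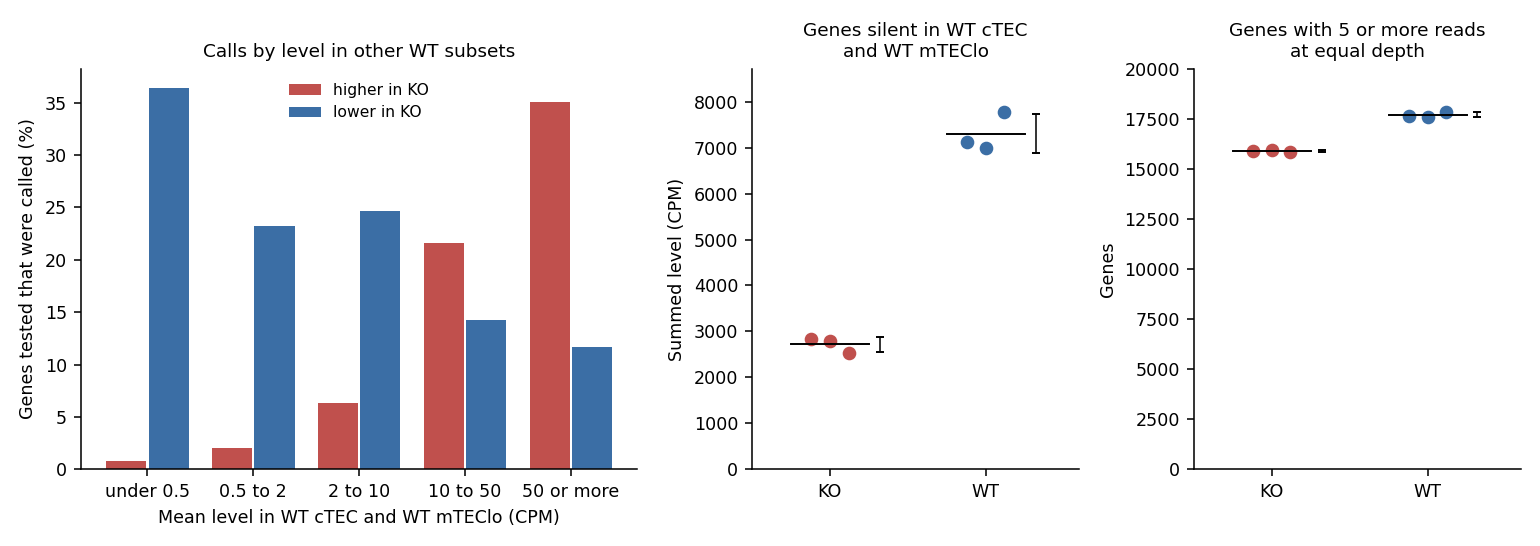
Left, the percentage of tested genes called higher (red) or lower (blue) in KO mTEChi by their mean level in WT cTEC and WT mTEClo; middle, summed CPM of the 9424 genes under 0.5 CPM in both of those subsets; right, genes with 5 or more reads at equal depth (points are libraries, lines means, bars SD, n = 3). The share of lower genes is largest in the lowest class, whose genes could pass the filter mainly through mTEChi. The KO libraries lie below the WT libraries in both other panels.

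The genes with the largest losses, among those with at least 5 CPM in a genotype, included products of secretory and nervous tissue. Lcn4, a lipocalin, had 0, 0.0759 and 0.442 CPM in KO and 6.92, 3.92 and 6.91 CPM in WT (log2 fold change -5.22 ± 0.88, adjusted p = 0.000159). Nms, the precursor of the neuropeptide neuromedin S, had 0.956, 1.06 and 0.883 CPM in KO and 18.6, 20.4 and 16.7 CPM in WT (-4.23 ± 0.59, adjusted p = 6.13e-05). Retnlb, a goblet cell resistin-like protein, had 0.359, 0.0759 and 0.294 CPM in KO and 5.81, 4.75 and 8.13 CPM in WT (-4.75 ± 0.85, adjusted p = 0.000369). That every KO library lay under every WT library was a condition for choosing these genes. Pcdh10, a protocadherin outside the clustered families, averaged 0.527 ± 0.258 CPM in KO and 9.35 ± 3.62 CPM in WT (-4.13 ± 0.60), and Slc6a15, a neutral amino acid transporter of neurons, averaged 0.504 ± 0.234 CPM in KO and 9.02 ± 3.19 CPM in WT (-4.12 ± 0.74). Hdx, an X-linked homeobox gene, reached a log2 fold change of -5.0 ± 0.68 and Mybpc1, a myosin-binding protein of slow skeletal muscle, -4.18 ± 0.31.

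**Figure D3:**
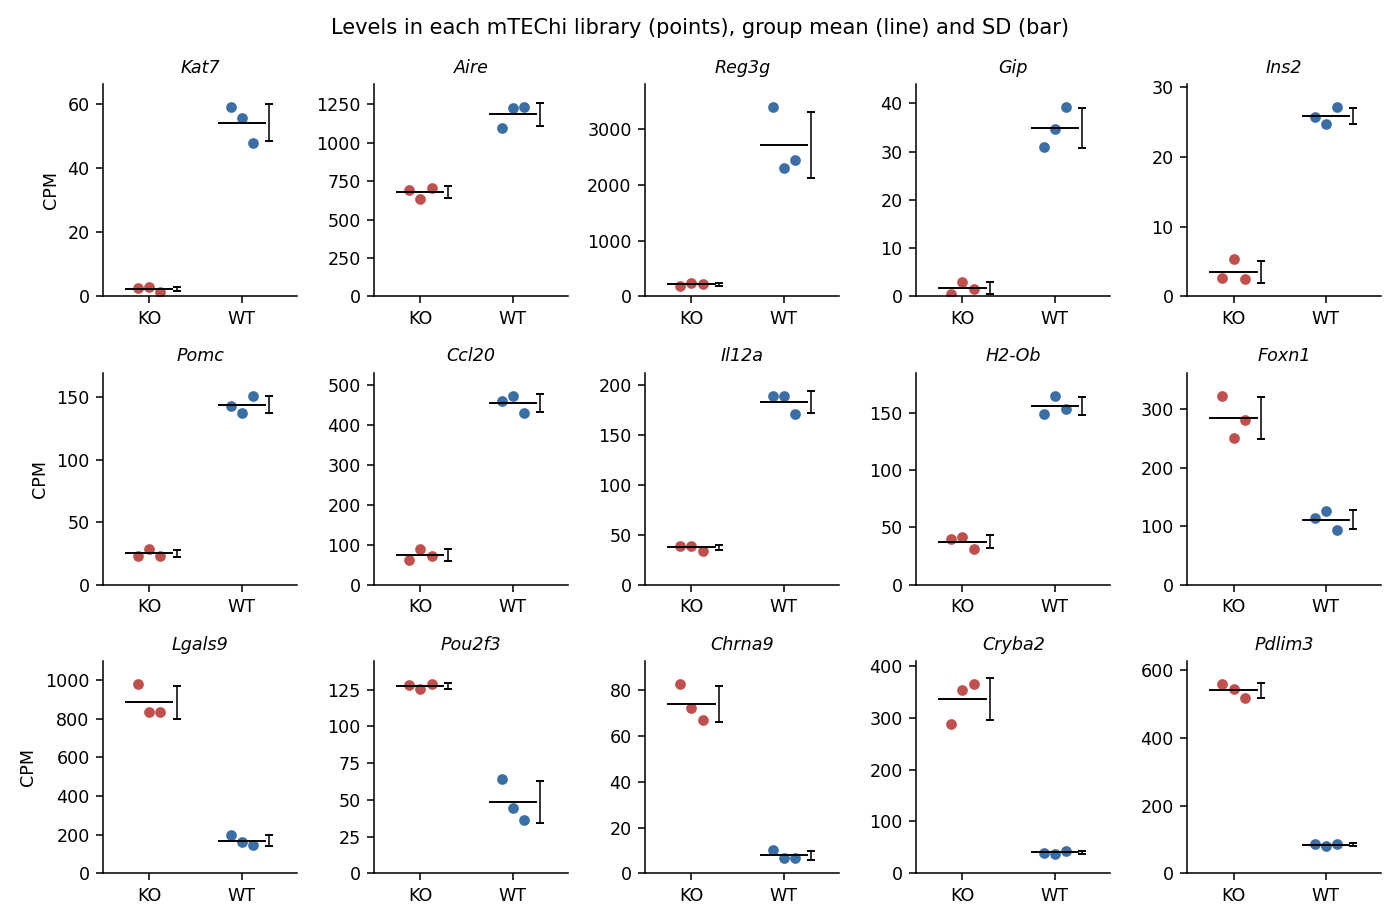
CPM of 15 genes in each mTEChi library (points; KO red on the left of each panel, WT blue on the right), with the mean (line) and SD (bar) of 3 libraries; each panel has its own axis from 0. In every panel the KO and WT libraries do not overlap, with KO lower for Kat7, Aire, Reg3g, Gip, Ins2, Pomc, Ccl20, Il12a and H2-Ob and higher for Foxn1, Lgals9, Pou2f3, Chrna9, Cryba2 and Pdlim3. For Reg3g, Gip, Chrna9, Cryba2 and Pdlim3, lack of overlap was a condition of their choice.

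The Reg family of secreted C-type lectins, antibacterial and regenerative products of pancreas and gut, fell in every member tested. The 6 tested genes of 7 were lower, with a median log2 fold change of -3.54, and the family summed to 210, 265 and 230 CPM in KO and 3655, 2543 and 2670 CPM in WT. Most of that sum was Reg3g, which binds the peptidoglycan of Gram-positive bacteria. The start sites of these genes are shown because they fell together, with 50 bases before and 20 bases from the start, 5′ to 3′ on the strand of the gene (RefSeq, GRCm38.p6). Capitals mark TATAAA, the letters of a TATA box, searched on the gene's strand between 40 and 20 bases before the start.

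Reg3g (chr6:78468825-78469124, minus strand): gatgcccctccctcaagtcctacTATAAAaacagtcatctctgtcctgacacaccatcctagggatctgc
Reg3b (chr6:78370635-78370934, plus strand): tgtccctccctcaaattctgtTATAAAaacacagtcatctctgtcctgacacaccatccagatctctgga
Reg1 (chr6:78425733-78426032, plus strand): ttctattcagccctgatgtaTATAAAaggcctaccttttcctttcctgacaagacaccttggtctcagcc
Reg2 (chr6:78404905-78405204, plus strand): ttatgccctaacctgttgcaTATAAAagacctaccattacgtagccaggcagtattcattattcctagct
Reg3a (chr6:78380459-78380758, plus strand): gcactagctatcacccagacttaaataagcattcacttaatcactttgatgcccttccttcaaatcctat
Reg4 (chr3:98221906-98222205, plus strand): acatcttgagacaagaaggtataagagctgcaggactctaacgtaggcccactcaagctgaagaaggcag

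The coordinates are those of the 300 base promoter from which each stretch was taken. TATAAA stood in that window in Reg3g, Reg3b, Reg1 and Reg2 and not in Reg3a or Reg4, and in 598 of 27025 mouse promoters (2.21%). The match is a description of letters, and its bearing on the change was not tested. Only the most upstream listed start of each gene was used. The Reg3a stretch ends in letters close to those just before TATAAA in Reg3g, so its lack of TATAAA may rest on the start used. Reg3b had 5.14, 6.91 and 2.36 CPM in KO and 147, 113 and 98.8 CPM in WT (log2 fold change -4.56 ± 0.86, adjusted p = 0.000467). Reg1 had 5.02, 6.68 and 2.5 CPM in KO and 82.8, 87.8 and 85.3 CPM in WT (-4.11 ± 0.93, adjusted p = 0.00202). Reg2 averaged 0.375 ± 0.225 CPM in KO and 4.27 ± 0.539 CPM in WT (-3.45 ± 0.68, adjusted p = 0.00148). These genes lie next to each other on chromosome 6 and resemble each other, so reads may be split between them. Reg3a (-2.63 ± 0.72, adjusted p = 0.00805) fell less in the fit, and so did Reg4, which lies apart on chromosome 3 (6.29 ± 1.32 CPM in KO and 24.6 ± 5.37 CPM in WT; -1.96 ± 0.48, adjusted p = 0.00378).

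Several other families of secreted proteins had most of their tested members lower. Lipocalins and odorant-binding proteins, carriers of small hydrophobic ligands in nose and epididymis, had 12 of 13 tested genes lower (92.3%, against 19.3% of all genes) and summed to 34.9 to 41.4 CPM in KO and 181 to 219 CPM in WT. Among the Bpif proteins, lipid-binding proteins of airway and salivary gland, 11 of 13 were lower, with sums of 175 to 238 CPM in KO and 606 to 703 CPM in WT. The kallikreins, serine proteases of skin and salivary gland, had 21 of 27 lower and none higher, with sums of 302 to 357 CPM in KO and 1084 to 1232 CPM in WT. Klk5, which starts the protease cascade of shedding skin, averaged 3.79 ± 0.395 CPM in KO and 34.4 ± 6.67 CPM in WT (log2 fold change -3.18 ± 0.57). Defensins had 14 of 17 tested genes lower and 1 higher, though only these 17 of 74 genes passed the filter. The 1 higher defensin, Defb42, not called without WT 2, WT 3, KO 5 or KO 6, had 23.1, 45 and 42.4 CPM in KO and 20.2, 19.1 and 19.7 CPM in WT. All 5 caseins were lower (3 without KO 4 or without KO 5). The carcinoembryonic antigen family, which includes the pregnancy-specific glycoproteins, had 17 of 24 lower (10 without WT 3) and 2 higher. The 2 higher members were Ceacam1 (40.8 ± 4.96 CPM in KO and 21.7 ± 3.86 CPM in WT) and Ceacam10 (144 ± 7.38 CPM in KO and 70.4 ± 6.14 CPM in WT). Not all secreted families had a majority lower: secretoglobins had 2 of 5 tested genes lower, major urinary proteins 3 of 7 (6 with the mouse pool as a replicate block) and placental prolactins 3 of 6, with none higher in these 3 families. Copies within the kallikrein, defensin and pregnancy-specific families are alike enough that their own reads may be shared.

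**Figure D4:**
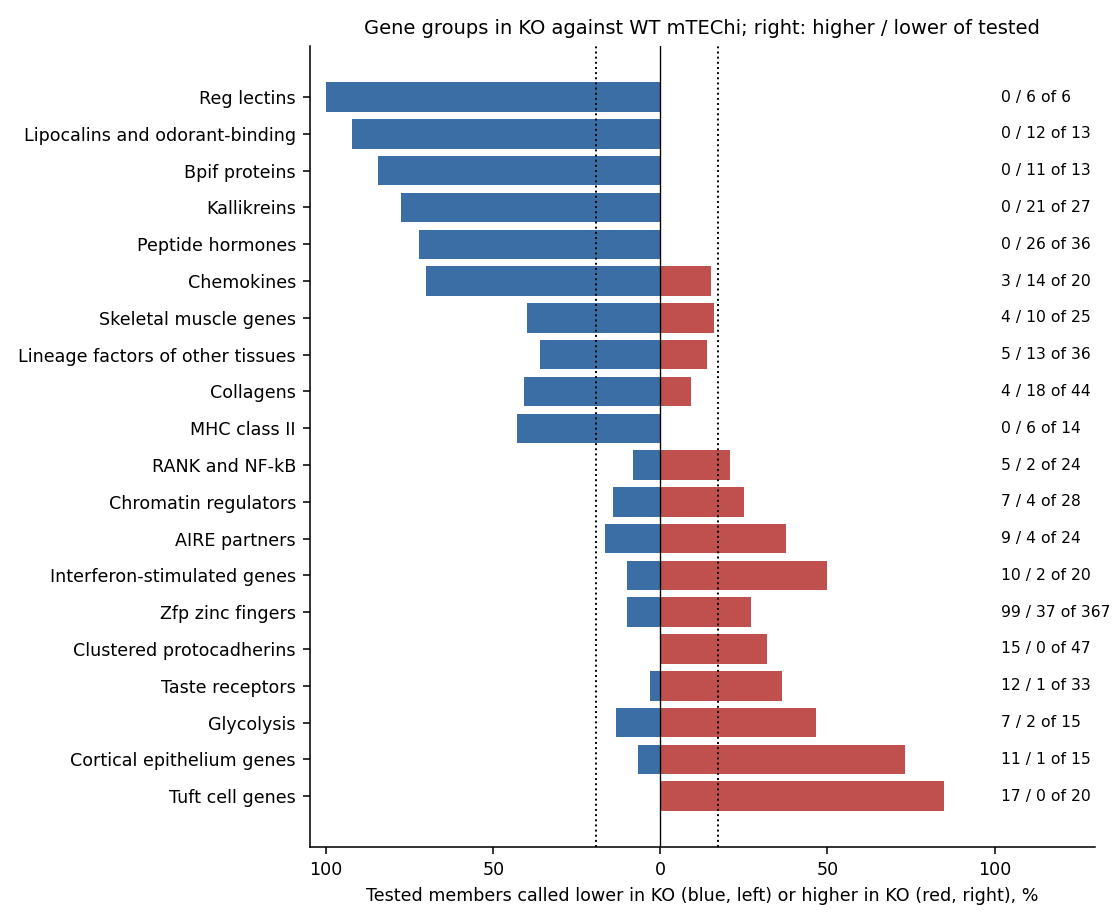
Percentage of tested members of 20 gene families and lists called lower (blue, to the left) or higher (red, to the right) in KO against WT mTEChi, with the counts higher and lower of those tested at the right margin; dotted lines mark the shares over all genes, 19.3% lower and 17.1% higher. Secreted protein families, peptide hormones and chemokines extend past the line on the left, and tuft cell and cortical epithelium genes past the line on the right.

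Peptide hormones were called in 1 direction only. Of 40 genes, 36 were tested, 26 were lower (72.2%) and none was higher, with a median log2 fold change of -1.84 against -0.11 over all genes. They summed to 872, 1059 and 1060 CPM in KO and 2017, 2021 and 2204 CPM in WT. Gip, the incretin of intestinal K cells, had 0.598, 3.04 and 1.47 CPM in KO and 31.0, 34.6 and 39.2 CPM in WT (-4.27 ± 0.63, adjusted p = 6.39e-05). Penk, the enkephalin precursor, had 14.2, 21.0 and 14.3 CPM in KO and 79.2, 76.9 and 93.7 CPM in WT (-2.32 ± 0.23, adjusted p = 4.46e-07). The lower members came from pancreas (Ins2, Iapp, Ppy), gut (Pyy, Sct, Cck, Gast, Nts, Vip), brain and pituitary (Pomc, Avp, Oxt, Crh, Trh, Npy, Gal, Tac1, Cga), heart (Nppa, Nppb), thyroid (Calca), liver (Hamp) and fat (Adipoq), with Uts2 besides. The 10 tested members that were not called were Gcg, Sst, Ghrl, Pdyn, Tshb, Lhb, Fshb, Gh, Pth and Adm.

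Many of the genes that fell were neighbours. With 18678 tested genes placed in order along the chromosomes, 65 runs of 4 or more consecutive genes were at least 2-fold lower in KO, holding 340 genes, against 3 such runs of higher genes, holding 16. Genes at least 2-fold higher were also fewer in all (3.38% of genes, against 13.5% lower). Without the 2-fold limit, 90 runs of called genes were lower and held 483 genes, and 26 runs were higher and held 118. Whether chance would place as many together was not tested. The longest, of 15 genes, lay on chromosome 2 (25624665 to 25918273) and held 9 lipocalin and odorant-binding genes between Fcna and Kcnt1. Its group means summed to 30.8 CPM in KO and 231 CPM in WT. The genes just outside, Tmem141 and Camsap1, had log2 fold changes of 0.14 and -0.30 and were not called. A run ends where a gene lacks its call, so the lack of such a call there was fixed by the rule. Further out, Phpt1 (-0.59) and Mamdc4 (-1.57) were called lower, and Rabl6 (0.28) and Nacc2 (0.56) higher. Further runs held the Bpif genes on chromosome 2 (10 genes, 116 CPM in KO and 527 CPM in WT), the caseins with sulfotransferases and glucuronosyltransferases on chromosome 5 (9 genes, 248 CPM in KO and 1030 CPM in WT), and the pregnancy-specific glycoproteins on chromosome 7 (9 genes, 92.1 CPM in KO and 306 CPM in WT). Runs of 8 genes held granzymes on chromosome 14 (9.07 CPM in KO and 46.6 CPM in WT) and Ccl2, Ccl7, Ccl11, Ccl12, Ccl8 and Ccl1 on chromosome 11 (56.1 CPM in KO and 252 CPM in WT).

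Of the 3 runs of genes at least 2-fold higher, one held Unc119, Foxn1, Slc13a2os, Slc13a2 and Slc46a1 on chromosome 11 (606 CPM in KO and 224 CPM in WT), and Slc13a2os is antisense to its neighbour, whose reads these unstranded libraries cannot separate. Another held Gm9696, Aadacl2, Aadac and Sucnr1, the succinate receptor, on chromosome 3 (127 CPM in KO and 30.6 CPM in WT). The longest, of 7 genes, held Pcdhb11 to Pcdhb17 on chromosome 18 (41.2 CPM in KO and 7.54 CPM in WT). Without the 2-fold limit, the 26 higher runs also held 4 guanylate-binding protein genes on chromosome 3 (Gbp7, Gbp3, Gbp2b and Gbp2; 227 CPM in KO and 125 CPM in WT).

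**Figure D5:**
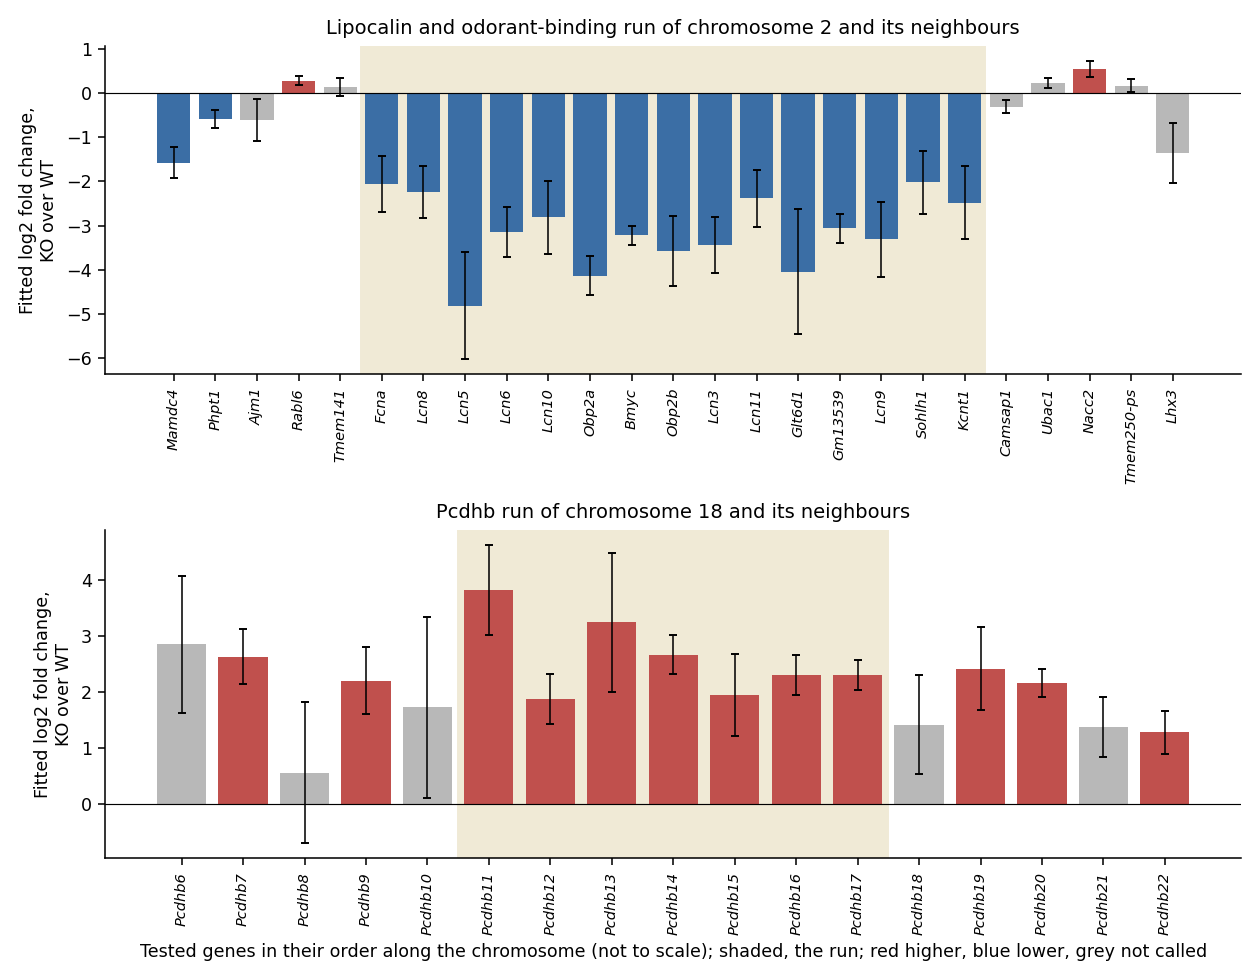
Fitted log2 fold change of KO over WT (bars) with its SE (lines) for tested genes in their order along the chromosome, in the lipocalin and odorant-binding run (top) and the Pcdhb run (bottom), with the runs shaded; red bars were called higher, blue lower and grey not called. The 15 genes of the upper run all fall and the 7 genes of the lower run all rise, which the rule for runs requires. The same rule requires that the direct neighbours lack the call of their run. The bars of Lcn5, Glt6d1 and Pcdhb13 rest on few reads.

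Clustered protocadherins, cell-surface molecules that neurons use to tell themselves apart, rose wherever a member was called. Of 58 genes 47 were tested, 15 were higher (31.9%, against 17.1% of all genes) and none was lower, with a median log2 fold change of 1.31. The mTEChi libraries alone allowed a test of only 27, with a median of 0.93. With the mouse pool as a replicate block the median was 1.02. The family summed to 158, 154 and 164 CPM in KO and 67.6, 82.7 and 69.0 CPM in WT. Pcdhb14 had 5.74, 6.00 and 6.18 CPM in KO and 1.11, 1.07 and 0.678 CPM in WT (2.67 ± 0.35, adjusted p = 1.12e-05). Of the called genes 12 belonged to the Pcdhb cluster, whose genes are single exons. The others were Pcdha8, Pcdha9 and Pcdhgc3, whose clusters share constant exons, so their reads are uncertain between members. Pcdha9 had no read in any WT library. Pcdh10, outside the clusters, fell.

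Families of skin, pancreas, liver and stomach were also called lower more often than higher. Of the Lce and Sprr proteins, which cross-link into the cornified envelope of skin, 13 of 32 tested were lower and none higher, but each left-out library reduced this to between 4 and 8, while a fit with the mouse pool as a replicate block gave 23. Krt10, a keratin of upper epidermis, had 12.5, 26.6 and 22.2 CPM in KO and 62.9, 58.7 and 60.1 CPM in WT (-1.55 ± 0.26, adjusted p = 0.000169). Pancreatic digestive enzymes had 7 of 17 lower (12 with the replicate block) and 1 higher, with sums of 56.8, 73.2 and 69.0 CPM in KO and 194, 183 and 219 CPM in WT. Ctrb1, a chymotrypsinogen, averaged 2.30 ± 0.773 CPM in KO and 22.7 ± 3.39 CPM in WT (-3.26 ± 0.52). Apolipoproteins had 13 of 27 lower (8 without KO 4 or KO 6) and 1 higher, with Apoc3, an inhibitor of lipoprotein lipase made by liver and gut, at 8.25, 11.5 and 13.2 CPM in KO and 101, 80.3 and 71.9 CPM in WT (-2.94 ± 0.35, adjusted p = 4.80e-06). Of 14 mucins 7 were lower (3 or 4 when any library was left out), namely the secreted Muc2, Muc5ac, Muc5b, Muc6 and Muc19 and the membrane mucins listed as Muc3 and Muc3a. The 3 higher mucins, Muc1, Muc15 and Muc20, are membrane mucins too.

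Germline genes were lower in 8 of 26 tested (30.8%, against 19.3% of all genes), but in only 2 to 4 when any library was left out. Among the 8 was Dmc1, the meiotic recombinase (0.615 ± 0.284 CPM in KO and 2.90 ± 0.167 CPM in WT; -2.17 ± 0.56). The 1 higher member, Zp2, a protein of the egg coat, outweighed the rest: it averaged 540 ± 36.0 CPM in KO and 153 ± 13.7 CPM in WT (1.82 ± 0.24, adjusted p = 1.21e-05), and the list summed to 683, 621 and 629 CPM in KO and 321, 325 and 311 CPM in WT. Zp3, another coat protein, was lower. Crystallins showed the same division, since Cryba2 was higher and 7 of the other 12 tested genes, including Cryaa and Crybb2 of lens, were lower. Solute carriers, a broad family of membrane transporters, had 62 of 312 higher (19.9%, against 17.1% of all genes) and 60 lower (19.2%, against 19.3%; 37 lower without KO 6, 38 without WT 3). Slc2a4, the insulin-responsive glucose transporter, averaged 80.9 ± 7.48 CPM in KO and 23.4 ± 2.78 CPM in WT (1.80 ± 0.14, adjusted p = 2.96e-08).

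The receptors of the chemical senses split by kind. Of the olfactory receptors only 45 of 1109 were tested, 17 of them lower (10 without WT 3) and none higher (3 with the replicate block), and all of them together summed to 82.0, 82.1 and 67.7 CPM in KO and 156, 171 and 194 CPM in WT. Vomeronasal receptors had 4 of 7 tested genes lower (2 without WT 3) and summed to 5.38, 7.29 and 5.45 CPM in KO and 24.9, 28.2 and 34.3 CPM in WT. Taste receptors went the other way, with 12 of 33 tested genes higher (36.4%) and 1 lower (2 without WT 1 or KO 5), and sums of 142, 171 and 161 CPM in KO and 74.5, 56.5 and 50.7 CPM in WT. Tas2r113, a bitter receptor, had 12.8, 18.7 and 19.0 CPM in KO and 1.66, 2.73 and 2.71 CPM in WT (2.76 ± 0.25, adjusted p = 2.05e-07), while Tas2r102 averaged 0.361 ± 0.329 CPM in KO and 1.99 ± 0.320 CPM in WT (-2.57 ± 0.47). Taste receptors are markers of tuft cells, and the tuft list moved with them: 17 of 20 genes were higher and none lower, with sums of 1723, 1647 and 1795 CPM in KO and 763, 627 and 554 CPM in WT. Pou2f3, the transcription factor that tuft cells require, had 128, 125 and 129 CPM in KO and 64.2, 44.5 and 36.2 CPM in WT (1.42 ± 0.20, adjusted p = 2.27e-05). Sh2d7, an adaptor of tuft cells, averaged 55.8 ± 6.21 CPM in KO and 14.0 ± 4.47 CPM in WT (2.05 ± 0.21).

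Genes that rose the most belonged to several cell types. Pdlim3, an actin-binding protein of the muscle Z-disc, had the smallest adjusted p of all genes, with 559, 545 and 516 CPM in KO and 86.9, 79.9 and 87.6 CPM in WT (2.67 ± 0.14, adjusted p = 3.83e-10). Muc20, a membrane mucin, had 24.3, 17.2 and 22.8 CPM in KO and 1.38, 2.02 and 3.25 CPM in WT (3.19 ± 0.33, adjusted p = 8.08e-07). Chrdl1, an antagonist of bone morphogenetic proteins, had 14.5, 15.3 and 14.1 CPM in KO and 1.11, 2.02 and 2.03 CPM in WT (2.99 ± 0.27, adjusted p = 1.56e-07). That every KO library lay above every WT library was a condition for choosing these genes. Cd177, a surface glycoprotein of neutrophils, also rose, with 141, 75.9 and 78.3 CPM in KO and 16.6, 12.7 and 11.5 CPM in WT (2.89 ± 0.38, adjusted p = 1.16e-05). Dner, a Notch ligand of neurons, averaged 24.1 ± 4.89 CPM in KO and 3.95 ± 2.17 CPM in WT (2.72 ± 0.54), and Saxo1, a protein of ciliary microtubules, 26.5 ± 4.55 CPM in KO and 4.14 ± 0.318 CPM in WT (2.68 ± 0.39). Antigens of known autoimmune disease were lower in 12 of 40 tested (19 with the replicate block) and higher in 4. These shares, 30% lower and 10% higher, compare with 19.3% and 17.1% of all genes. Of the higher ones, Aqp4, the water channel targeted in neuromyelitis optica, rose to 67.9, 73.5 and 68.9 CPM in KO, against 14.1, 10.3 and 15 CPM in WT (2.43 ± 0.15, adjusted p = 7.52e-09). Dsg3, the desmosomal antigen of pemphigus vulgaris, averaged 36.0 ± 2.52 CPM in KO and 7.19 ± 1.31 CPM in WT (2.30 ± 0.32).

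Aire had 693, 633 and 703 CPM in KO and 1096, 1225 and 1229 CPM in WT, with no overlap. Its log2 fold change of -0.81 ± 0.31 lay at the threshold (adjusted p = 0.050), and the call was lost when any 1 library was left out (adjusted p = 0.0780 to 0.129) and with DESeq2 (adjusted p = 0.0927). Over all alternatives the adjusted p lay between 4.91e-05, in the mTEChi libraries alone, and 0.129. Among 24 genes whose products bind or assist AIRE, 9 were higher and 4 lower, with a median of 0.12. These are shares of 37.5% and 16.7%, against 17.1% and 19.3% of all genes. Sirt1, the deacetylase that acts on AIRE, fell, with 120, 154 and 137 CPM in KO and 275, 313 and 355 CPM in WT (-1.20 ± 0.13, adjusted p = 2.05e-06). Top2a and Chd4 had log2 fold changes of -0.68 ± 0.21 and -0.43 ± 0.13, calls that were lost without WT 2, WT 3 or KO 6 for Top2a (adjusted p up to 0.0942) and without WT 2 or KO 4 for Chd4 (up to 0.0841). Ccnt1, the cyclin of the elongation kinase P-TEFb, averaged 49.4 ± 4.61 CPM in KO and 31.3 ± 1.44 CPM in WT (0.66 ± 0.13). The count of higher partners was 5 without WT 3, and that of lower partners 2 without WT 2, WT 3 or KO 6.

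Other chromatin regulators moved little. Of 28 readers, writers and erasers, 7 were higher and 4 lower (2 without WT 3 or KO 4), none of them 2-fold, with a median of 0.003 whose sign varied with the scaling. That is 25% higher and 14.3% lower, against 17.1% and 19.3% of all genes. Kdm5b, a demethylase of lysine 4 of histone H3, averaged 94.8 ± 11.7 CPM in KO and 55.9 ± 5.79 CPM in WT (0.76 ± 0.12, adjusted p = 8.65e-05). Ezh2, the methyltransferase of Polycomb complex PRC2, averaged 30.7 ± 3.47 CPM in KO and 48.0 ± 3.84 CPM in WT (-0.64 ± 0.15, adjusted p = 0.00329). Of 13 other lysine acetyltransferases, 4 (30.8%) were higher (2 without WT 3 or KO 4) and 1 (7.69%) was lower (none without any library but WT 1). The nuclear receptor coactivator Ncoa1 rose the most among them (59.0 ± 5.84 CPM in KO and 33.7 ± 2.07 CPM in WT; 0.81 ± 0.13, adjusted p = 0.000127). Kat6a, Kat6b, Kat5, Ep300 and Crebbp were not called. Genes named as Zfp zinc fingers, many of them DNA-binding repressors, leaned upward: 99 of 367 were higher (27.0%) and 37 lower, with a median of 0.24, and they summed to 9464 to 9671 CPM in KO and 7888 to 8049 CPM in WT. Zfp36l2, which despite its name degrades messenger RNA, rose to 52.5, 50 and 67.9 CPM in KO, against 22.4, 22.0 and 24.1 CPM in WT (1.31 ± 0.14).

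Most genes of a list drawn up for cortical epithelium were higher in the KO medullary fraction. Not all its members are particular to cortex, since Foxn1 and Pax1 also stand in the list of thymic regulators. Of 15 tested cortical genes, 11 were higher and 1 lower (none without any library but WT 1, or with the replicate block), with a median of 0.80. Foxn1, the master regulator of thymic epithelium, had 324, 252 and 282 CPM in KO and 115, 126 and 94.1 CPM in WT (1.36 ± 0.17, adjusted p = 7.84e-06). Pax1 rose with it (70.0 ± 5.83 CPM in KO and 35.3 ± 2.77 CPM in WT; 0.98 ± 0.12), whereas its relative Pax9, also required for thymus formation, had 26.2, 25 and 21.6 CPM in KO and 58.1, 62.5 and 54 CPM in WT (-1.26 ± 0.13, adjusted p = 6.02e-07). Ehf, an epithelial ETS factor, averaged 440 ± 17.1 CPM in KO and 200 ± 23.8 CPM in WT (1.14 ± 0.15). Over all 29 thymic regulators, 8 (27.6%) were higher (5 without WT 3 or KO 4) and 3 (10.3%) lower (1 when any library was left out). All genes tested had 17.1% higher and 19.3% lower. Among 9 keratins of thymic epithelium, 6 were higher, including basal Krt5 (407, 479 and 625 CPM in KO and 256, 201 and 181 CPM in WT; 1.25 ± 0.16) and simple Krt8 (1690 ± 182 CPM in KO and 979 ± 72.9 CPM in WT; 0.79 ± 0.13). Krt20, a keratin of gut epithelium, had 27.2, 27.6 and 26.8 CPM in KO and 131, 114 and 120 CPM in WT (-2.16 ± 0.23, adjusted p = 1.14e-06). Over the whole keratin family 11 were higher (6 without WT 3) and 21 lower (13 without KO 4 or KO 5).

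Genes of the MHC class II pathway, on whose surface product the cells were sorted, were called in the lower direction only. Of 14 genes none was higher and 6 were lower, with a median of -0.40. The 14 genes summed to 56329, 49994 and 53016 CPM in KO and 65439, 65461 and 62950 CPM in WT. H2-DMa, a chain of the peptide exchanger, had 168, 170 and 173 CPM in KO and 305, 321 and 319 CPM in WT (-0.89 ± 0.13, adjusted p = 3.83e-05), and its partner H2-DMb1 averaged 136 ± 2.51 CPM in KO and 245 ± 10.3 CPM in WT (-0.85 ± 0.09). H2-Ob, a chain of the inhibitor of that exchanger, averaged 37.6 ± 5.57 CPM in KO and 156 ± 8.14 CPM in WT (-2.05 ± 0.17). The sort gate acts on the protein, and macrophage and dendritic cell markers, whose cells also carry class II, summed to 854 to 1009 CPM in KO and 1648 to 1701 CPM in WT; the part of either in these levels was not tested. In the class I pathway 2 of 16 genes were higher and 4 lower (2 without WT 3, KO 4 or KO 6), with Tap2, a chain of the peptide transporter, at 39.6, 42.1 and 52.1 CPM in KO and 114, 110 and 98.7 CPM in WT (-1.27 ± 0.15, adjusted p = 3.05e-06). The class I shares, 12.5% higher and 25% lower, compare with 17.1% and 19.3% of all genes.

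Of 17 tested surface ligands and receptors that signal to T cells, 5 were lower (29.4%, against 19.3% of all genes) and 2 higher (11.8%, against 17.1%). The lower ones were Fas, Pdcd1lg2, Tnfsf9, Cd70 and Btnl2, and the higher ones Lgals9 and Nectin2. Tnfsf9, the ligand of 4-1BB, had 78.9, 76.9 and 67.0 CPM in KO and 162, 144 and 143 CPM in WT (-1.01 ± 0.17, adjusted p = 0.000206). Pdcd1lg2, a ligand of PD-1, had 27.1, 29.3 and 28.4 CPM in KO and 60.6, 63.2 and 54.6 CPM in WT (-1.07 ± 0.17, adjusted p = 0.000112). Outside this list, Cd40, a receptor for T cell help, averaged 324 ± 9.45 CPM in KO and 464 ± 2.13 CPM in WT (-0.52 ± 0.14). Lgals9, a galectin that binds TIM-3, rose, with 981, 837 and 837 CPM in KO and 200, 162 and 148 CPM in WT (2.39 ± 0.18, adjusted p = 2.96e-08). All 9 genes with an Lgals symbol were called, 5 lower (Lgals2, Lgals4, Lgals1, Lgals3 and Lgals7) and 4 higher (Lgals9, Lgals12, Lgals8 and Lgals3bp, which encodes a galectin-binding glycoprotein and no galectin). Lgals2, a galectin of gut, averaged 4.48 ± 1.87 CPM in KO and 50.9 ± 3.08 CPM in WT (-3.48 ± 0.37). The annexins, calcium-dependent membrane binders, had 7 of 12 higher and 2 lower (1 when any library was left out). Anxa1 averaged 1083 ± 39.8 CPM in KO and 465 ± 23.8 CPM in WT (1.22 ± 0.14), and Anxa10, a stomach annexin, had 12.1, 11.7 and 8.98 CPM in KO and 108, 96.9 and 93.4 CPM in WT (-3.17 ± 0.32, adjusted p = 6.61e-07).

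Most chemokines fell. Of 20 tested, 14 were lower (70.0%) and 3 higher, with a median of -1.25. Ccl27a, a chemokine of skin for CCR10, had 12.3, 25.6 and 21.2 CPM in KO and 96.4, 80.5 and 94.0 CPM in WT (-2.18 ± 0.24, adjusted p = 1.89e-06). Ccl11, an eosinophil attractant, had 5.50, 8.12 and 9.13 CPM in KO and 62.6, 78.3 and 38.6 CPM in WT (-2.98 ± 0.29, adjusted p = 4.25e-07). Ccl6 averaged 55.7 ± 5.45 CPM in KO and 112 ± 6.16 CPM in WT (-1.01 ± 0.17). The CCR4 ligands Ccl17 and Ccl22, the CCR7 ligand Ccl19, the CXCR3 ligands Cxcl9 and Cxcl10, and Xcl1, which draws dendritic cells, were also among the lower genes, while Ccl21a was not called. The 3 higher chemokines were Cxcl12 (66.9 ± 3.70 CPM in KO and 16.4 ± 1.21 CPM in WT; 2.03 ± 0.14), Cxcl16 (175 ± 13.1 CPM in KO and 117 ± 12.5 CPM in WT; 0.59 ± 0.11) and Ccl25. Ccl25, a thymocyte attractant of the cortex, averaged 1531 ± 97.4 CPM in KO and 1058 ± 40.1 CPM in WT, with adjusted p = 0.0351 that exceeded 0.05 when any library but KO 6 was left out (0.0550 to 0.0892) and with RLE scaling (0.0595; 0.000515 at the lowest over all alternatives). The list summed to 3236 to 3576 CPM in KO and 3934 to 4197 CPM in WT.

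Cytokines and growth factors changed in both directions, with 8 of 30 tested higher (26.7%, against 17.1% of all genes) and 6 lower (20%, against 19.3%; 10 lower with the replicate block). Il12a, a chain of interleukin-12 and interleukin-35, had 39.2, 39.2 and 34.3 CPM in KO and 189, 190 and 171 CPM in WT (-2.28 ± 0.27, adjusted p = 3.71e-06). Il23a had 106, 104 and 99.8 CPM in KO and 241, 229 and 239 CPM in WT (-1.19 ± 0.12, adjusted p = 6.03e-07). Il33 averaged 1.81 ± 0.739 CPM in KO and 8.51 ± 1.35 CPM in WT (-2.16 ± 0.35). Flt3l, Tgfb2 and Il1a were the other lower members. The higher members were Tgfb3 (31.9 ± 3.95 CPM in KO and 10.9 ± 0.646 CPM in WT; 1.56 ± 0.16), Wnt4 (186 ± 15.2 CPM in KO and 93.4 ± 1.21 CPM in WT; 0.99 ± 0.12), Csf1, Kitl, Vegfa and the Notch ligands Dll1, Dll4 and Jag1. Interferon-stimulated genes had 10 of 20 higher and 2 lower (1 without WT 1, WT 2 or KO 5, or with the replicate block), with a median of 0.36. Among the higher genes was Ddx58, which encodes the RNA sensor RIG-I (63.4 ± 2.58 CPM in KO and 32.8 ± 3.27 CPM in WT; 0.96 ± 0.11). Of 24 genes of RANK and NF-kB signalling, 5 were higher (2 without WT 3, 3 without KO 4) and 2 lower (1 when any library was left out), with a median of -0.01 whose sign varied with the scaling. Their shares of 20.8% and 8.33% compare with 17.1% and 19.3% of all genes. Ltbr, the lymphotoxin beta receptor, averaged 66.0 ± 6.91 CPM in KO and 43.9 ± 5.01 CPM in WT (0.60 ± 0.12).

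Transcription factors that define cells of other organs changed in both directions. Of 36 tested, 13 were lower (8 without KO 4, 7 without KO 5) and 5 higher (3 without WT 2 or WT 3). That is 36.1% lower and 13.9% higher, against 19.3% and 17.1% of all genes. The lower group held Hnf4g of intestine (15.8 ± 1.74 CPM in KO and 40.7 ± 3.56 CPM in WT; -1.36 ± 0.21), Mcidas of multiciliated cells (6.05 ± 1.03 CPM in KO and 24.6 ± 2.16 CPM in WT; -2.02 ± 0.38) and Foxi1 of ionocytes (5.72 ± 1.94 CPM in KO and 15.8 ± 2.69 CPM in WT; -1.47 ± 0.31). The higher group held Pou2f3 and Gfi1b of tuft cells, Foxa1, Foxa3 and Myog, the myogenic factor of muscle differentiation. Myog had 53.4, 33.4 and 52.1 CPM in KO and 16.9, 14.4 and 14.4 CPM in WT (1.61 ± 0.21, adjusted p = 1.13e-05). Other muscle genes did not move as 1 group, since 10 of 25 were lower and 4 higher, with a median of -0.86. Musk, the receptor kinase of the neuromuscular junction, and Des, the muscle intermediate filament, were higher with Myog (Musk 17.9 ± 3.80 CPM in KO and 4.56 ± 1.09 CPM in WT; Des 94.9 ± 4.95 CPM in KO and 36.5 ± 6.15 CPM in WT). The troponins Tnni1 (25.7 ± 2.14 CPM in KO and 73.2 ± 12.4 CPM in WT; -1.51 ± 0.27) and Tnnt2 (15.2 ± 0.833 CPM in KO and 44.9 ± 3.48 CPM in WT; -1.56 ± 0.23) were lower. Goblet and other secretory cell genes had 11 of 21 lower (7 without KO 4) and 2 higher, among the lower Tff1, a trefoil peptide of stomach (5.21 ± 3.60 CPM in KO and 39.2 ± 8.43 CPM in WT; -2.96 ± 0.40), and the 2 higher being Clca1 and Fcgbp, both of goblet cell mucus. The list summed to more in KO (3543, 2712 and 2848 CPM) than in WT (2238, 2392 and 2016 CPM), and Fcgbp made up most of the sum (3103, 2296 and 2419 CPM in KO and 1363, 1495 and 1211 CPM in WT).

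Matrix and metabolic genes gave smaller or mixed changes. Of 44 collagens 18 were lower and 4 higher, with a median of -0.87. Col5a2, a fibril-forming chain, had 5.50, 4.86 and 1.91 CPM in KO and 37.9, 61.1 and 54.9 CPM in WT (-3.61 ± 0.25, adjusted p = 1.02e-08), and the higher chains were Col6a1, Col6a2, Col12a1 and Col18a1. Fibroblast and mural cell markers summed to 581 to 671 CPM in KO and 321 to 340 CPM in WT, and their part in these levels was not tested. In glycolysis 7 of 15 genes were higher and 2 lower (1 when any library was left out), with a median of 0.37. Pfkm, phosphofructokinase of muscle, averaged 45.1 ± 4.84 CPM in KO and 22.5 ± 2.55 CPM in WT (1.00 ± 0.19), whereas Hk2, an inducible hexokinase, averaged 4.88 ± 0.881 CPM in KO and 11.2 ± 1.36 CPM in WT (-1.18 ± 0.29). Mitotic genes had 7 of 25 lower (28%, against 19.3% of all genes) and none higher, with a median of -0.49. Only 2 were lower without WT 3, 3 without KO 6 and 4 without WT 2 (11 with the replicate block). Mki67, the proliferation antigen, averaged 42.5 ± 8.04 CPM in KO and 75.5 ± 8.04 CPM in WT (-0.83 ± 0.20). Replication genes had 5 of 30 higher and 4 lower (16.7% and 13.3%, against 17.1% and 19.3% of all genes), with Mcm4, a subunit of the replicative helicase, at 79.5 ± 2.43 CPM in KO and 41.0 ± 2.89 CPM in WT (0.96 ± 0.17); leaving out 1 library gave as few as 1 higher (without KO 4) and 1 lower (without WT 2, WT 3, KO 4 or KO 6). Targets and effectors of p53 had 6 of 21 higher and 3 lower (1 without KO 4), and Cdkn1a, the cell cycle inhibitor p21, averaged 239 ± 32.9 CPM in KO and 376 ± 9.28 CPM in WT (-0.65 ± 0.12). The p53 list thus had 28.6% higher and 14.3% lower, against 17.1% and 19.3% of all genes. Heat shock and immediate early genes had 5 of 20 lower (3 without WT 1, KO 4 or KO 5) and none higher (2 without WT 1), with Hsph1, a chaperone cofactor, at 142 ± 25.6 CPM in KO and 235.4 ± 24.4 CPM in WT (-0.73 ± 0.15). The lower share of that list, 25%, compares with 19.3% of all genes. Ribosomal protein genes, whose reads are easily shared with pseudogenes, had 21 of 80 lower, where 19.3% of all genes were lower. That count was only 4 without KO 4, 6 without WT 3 and 9 without WT 2. They summed to 2561, 4096 and 3813 CPM in KO and 4333, 4884 and 5168 CPM in WT, so KO 4 lay below the other libraries.

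By the difference in mean CPM, which favours long and abundant transcripts, the largest gains included Fcgbp, Alox12e and Ivns1abp. Fcgbp, whose values are given above, had a log2 fold change of 0.94 ± 0.16 (adjusted p = 0.000140). Alox12e, an epidermal lipoxygenase, had 2562, 2097 and 2221 CPM in KO and 1355, 1164 and 1059 CPM in WT (0.94 ± 0.13, adjusted p = 1.48e-05). Ivns1abp, a Kelch protein that takes part in splicing, had 1297, 1494 and 1569 CPM in KO and 594, 528 and 457 CPM in WT (1.47 ± 0.15, adjusted p = 9.53e-07). Clu, Sgpl1, Aplp2 and Krt18 gained between 742 and 909 CPM in the mean. The largest losses in mean CPM included H2-Ab1, Lars2, Reg3g, H2-Aa and Srgn, the core protein of secretory granules (1464, 2093 and 1481 CPM in KO and 2514, 2991 and 3083 CPM in WT; -0.77 ± 0.19). H2-Ab1 passed the test (-0.43 ± 0.12, adjusted p = 0.0107) but not without KO 5 (0.0666; 0.000208 at the lowest over all alternatives), and Lars2 (-0.49 ± 0.18, adjusted p = 0.0354) was lost when any 1 library other than WT 1 was left out (0.0690 to 0.153; 0.00333 at the lowest over all alternatives).

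Markers of cells that a thymic sort can carry over moved too. Of 17 tested macrophage and dendritic cell markers 10 were lower (6 without KO 5) and 1 higher (none without WT 2 or KO 4, or with the replicate block), with sums of 854 to 1009 CPM in KO and 1648 to 1701 CPM in WT. Lyz2 made up most of that sum (818 ± 61.5 CPM in KO and 1447 ± 33.4 CPM in WT). Mast cell markers had 5 of 8 lower (3 without WT 1, WT 2, KO 5 or KO 6), with sums of 465 to 685 CPM in KO and 878 to 1048 CPM in WT. Fibroblast and mural cell markers had 4 of 12 higher and 4 lower (33.3% each, against 17.1% and 19.3% of all genes). They summed to 581 to 671 CPM in KO and 321 to 340 CPM in WT. Most of the KO sum, but not of the WT sum, was Acta2 (251 ± 28.0 CPM in KO and 74.2 ± 5.07 CPM in WT) and Dcn (237 ± 21.2 CPM in KO and 67.8 ± 4.5 CPM in WT). Thymocyte markers had 2 of 18 higher (1 without WT 1, WT 2 or KO 5, or with the replicate block) and 3 lower (1 without any 1 library but WT 1 or WT 3), with sums of 174 to 197 CPM in KO and 149 to 187 CPM in WT. Their shares, 11.1% and 16.7%, were below the 17.1% and 19.3% of all genes. B cell markers summed to 310 to 366 CPM in KO and 210 to 244 CPM in WT, and endothelial markers to 75.4 to 84.3 CPM in KO and 61.7 to 65.6 CPM in WT. No marker of these lists was at 0 in all libraries of a genotype, and their part in the chemokine, collagen, galectin and secreted protein results was not tested.

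The difference between the KO effect in mTEChi and that in mTEClo was tested for the 5 most raised and 5 most lowered genes (Chrna9, Muc20, Cryba2, Chrdl1 and Cd177; Lcn4, Hdx, Retnlb, Reg3b and Kat7). None passed in the main fit (adjusted p = 0.0975 to 0.932), which does not use that both subsets came from the same pools. With the mouse pool as a fixed block, which uses this pairing, only Cd177 passed, and Chrna9 came next (adjusted p = 0.0788). The log2 effect of Cd177 was 1.25 larger in mTEChi (98.4 ± 36.9 CPM in KO and 13.6 ± 2.66 CPM in WT) than in mTEClo (403 CPM in KO and 130 CPM in WT). With the fixed block this difference was 1.13 with adjusted p = 0.0157. Cryba2, a lens crystallin also found in endocrine cells, had nearly the same log2 effect in both subsets, with a difference of 0.16 (336 ± 41.2 CPM in KO and 40.3 ± 2.56 CPM in WT mTEChi; 103 CPM in KO and 13.7 CPM in WT mTEClo). A difference that misses the threshold does not show that the effects are alike. The genes were chosen by their change in mTEChi, which is part of the difference, so the choice favours larger effects in mTEChi. Lcn4 (0.0188 CPM in KO and 0.111 CPM in WT) and Retnlb (0.0225 and 0.0432 CPM) were nearly absent from mTEClo, where a change could hardly be seen.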

How the data were processed

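RNA of sorted thymic epithelial cells was made into cDNA with a SMART-Seq kit and into paired-end libraries with Nextera XT, per the labels' protocols. The deposited values were whole read counts per gene, made by the authors with featureCounts on mm10, per the submitters' processing notes. Aligner, versions and treatment of multimapping reads are not given in the sources used here. The kit does not mark strand.

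The counts of all 18 libraries were fitted in edgeR 4.0.16 (R 4.3.3) with 6 group means, TMM scaling, the quasi-likelihood test and a filterByExpr minimum of 10 counts, which left 12 residual degrees of freedom. Genes were called at a Benjamini-Hochberg adjusted p under 0.05. The other libraries share in the estimate of spread, in the scaling and in the filter that set which genes were tested. With the mTEChi libraries alone, 17338 genes were tested. That fit held 16 taste receptors with a median log2 fold change of 1.77, against 33 and 0.43 in the main fit. Totals of 3554089 to 13373646 counts set the precision of low levels. Replicates differed by more than sampling noise. Alternatives were RLE scaling, no filter, the 6 mTEChi libraries alone, DESeq2 1.42.0, limma 3.58.1 voom with the mouse pool as a replicate block, and each library left out. The labels say that the same pool gave the 3 cell subsets, and deviations from the group means within a pool correlated between -0.00094 and 0.239. The fit was checked on simulated counts.

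Members and lists were chosen with earlier results of these data known. The genes named were Kat7, Aire, the 12 most raised and 12 most lowered called genes with at least 5 CPM in a genotype and no overlap of libraries, the 8 largest gains and 8 largest losses in mean CPM, and the genes with the smallest adjusted p in each list or the largest called change in each family, leaving out genes without a symbol, predicted genes and sex-specific genes. Other members are named to account for their list, and neighbours to describe a run. Of the genes, 25275 matched RefSeq, which gave coordinates and promoters (GRCm38.p6). A check of promoter classes over all tested genes was void, since 74.5% of them had a promoter sequence, under the 80% set for it.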

Additional observations from a re-analysis of the deposited data

How the results depend on the processing

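Genes higher and lower numbered 2912 and 4066 with RLE scaling, 3588 and 3462 with no filter (the balance turned), 3964 and 4515 in the mTEChi libraries alone, 2981 and 3843 with DESeq2, and 2858 and 4071 with the replicate block. The median log2 fold change of all genes was -0.15 with RLE, DESeq2 or no filter, -0.04 in the mTEChi libraries alone and -0.11 with the block. With 1 library left out, 2394 to 3140 genes were higher and 2436 to 2964 lower, and leaving out any library but WT 3 turned the balance (for example 3140 and 2875 without KO 5), with 554 to 744 higher and 1821 to 2127 lower at least 2-fold, and Kat7 changed by -4.66 to -4.26. The equal-depth difference was -1861 to -1732 with 1 library left out and -1549 at 10 or more reads. The ratio for genes silent elsewhere was 0.365 to 0.386 with 1 library left out, 0.291 below 0.1 CPM and 0.408 below 1 CPM.

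Uncalled partners of KAT7 changed sign, and the cause was not tested: Brpf1 (-0.14 to 0.0061 with 1 library left out), Brd1 (-0.10 to 0.21; -0.0061 with RLE, -0.0122 with DESeq2), Brpf3 (-0.18 to 0.099), Jade1 (-0.0092 to 0.082; -0.0195 with RLE, -0.019 with DESeq2) and Meaf6 (-0.12 to 0.087; 0.0027 with no filter). The Reg3b difference between subsets, -0.26, was 0.085 with the mouse pool as a fixed replicate block. No pool held both genotypes, so the block could only be a random effect in the comparison of genotypes, and beyond the counts given in the report it ended the calls of 12 named genes, among them Hdac7, Krt15, Cd83 and Hoxa4. Leaving out WT 3 ended 52 calls among the named genes, KO 4 51 and WT 1 26. Depth limits low genes most: olfactory and vomeronasal receptors were mostly untested.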
